A study of Mus musculus with 12 samples.

Results

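Accessible chromatin was examined around 9 genes that encode RNA-decay factors: the Regnase family (Zc3h12a, Zc3h12b, Zc3h12c and Zc3h12d), the Roquin pair (Rc3h1 and Rc3h2) and the TTP family (Zfp36, Zfp36l1 and Zfp36l2). Deposited ATAC-seq peak intervals lying within 50 kb of the mm10 body of 1 of these genes were collected. They formed 71 of the 45091 merged regions of the series and 907 of its 603679 distinct deposited intervals. The series profiled NK cells from mouse spleen in 4 groups of 3 libraries. These were KO cells (Reg-1ΔNK, in which Regnase-1 is deleted in NK cells) stimulated with IL-12/18, KO control cells, WT cells (Reg-1fl/fl) stimulated with IL-12/18, and WT control cells. The floxed allele is therefore named for the WT cells too. The driver of the deletion, the deleted exons, the age of the mice and the length of stimulation are not given in the sources used here. The labels do not say whether the 3 libraries of a group came from separate animals, so p-values measure the spread between these libraries, which may be technical.

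All 3 families shorten the life of messenger RNAs, many of them encoding cytokines. Regnase-1, encoded by Zc3h12a, is a nuclease that cuts stem-loops in the 3′ untranslated regions of its targets, and Zc3h12b, Zc3h12c and Zc3h12d encode relatives with the same kind of nuclease domain. Roquin-1 and Roquin-2, from Rc3h1 and Rc3h2, bind similar stem-loops and recruit deadenylases. Tristetraprolin (TTP, from Zfp36) and its relatives from Zfp36l1 and Zfp36l2 bind AU-rich elements and also recruit deadenylases. Several of these proteins are themselves induced or inactivated when lymphocytes are activated.

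Promoter sequence is shown for 4 of the genes, because their start sites carry the contrasts described further on: the start site of Zc3h12d was called in control libraries only, those of Zfp36 and Zfp36l1 lost rank in stimulated WT cells, and that of Zc3h12a stayed near the top in every library. Each run covers 250 bases before to 50 bases after the start site, 5′ to 3′ along the gene, from RefSeq on GRCm38.p6, the assembly behind mm10. Of the 9 genes, 8 had an entry. The windows are chr10:7832220-7832519 on the plus strand for Zc3h12d, chr7:28379179-28379478 on the minus strand for Zfp36, chr12:80112964-80113263 on the minus strand for Zfp36l1 and chr4:125127832-125128131 on the minus strand for Zc3h12a. Capitals mark motif matches.
Zc3h12d: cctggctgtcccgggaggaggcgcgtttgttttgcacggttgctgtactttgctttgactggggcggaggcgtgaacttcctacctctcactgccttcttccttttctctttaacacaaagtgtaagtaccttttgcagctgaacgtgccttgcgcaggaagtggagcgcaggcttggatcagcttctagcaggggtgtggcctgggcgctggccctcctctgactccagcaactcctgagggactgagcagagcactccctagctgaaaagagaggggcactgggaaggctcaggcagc
Zfp36: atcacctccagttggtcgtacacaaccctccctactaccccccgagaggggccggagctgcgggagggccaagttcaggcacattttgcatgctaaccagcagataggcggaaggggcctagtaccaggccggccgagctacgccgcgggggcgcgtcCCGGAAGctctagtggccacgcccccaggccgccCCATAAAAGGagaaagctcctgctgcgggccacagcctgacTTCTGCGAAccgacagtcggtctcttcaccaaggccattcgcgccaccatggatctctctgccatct
Zfp36l1: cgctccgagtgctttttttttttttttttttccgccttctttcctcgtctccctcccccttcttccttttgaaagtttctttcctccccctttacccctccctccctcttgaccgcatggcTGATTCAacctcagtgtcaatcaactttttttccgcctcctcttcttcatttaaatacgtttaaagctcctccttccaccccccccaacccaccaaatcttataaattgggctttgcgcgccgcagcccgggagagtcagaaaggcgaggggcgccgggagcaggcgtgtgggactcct
Zc3h12a: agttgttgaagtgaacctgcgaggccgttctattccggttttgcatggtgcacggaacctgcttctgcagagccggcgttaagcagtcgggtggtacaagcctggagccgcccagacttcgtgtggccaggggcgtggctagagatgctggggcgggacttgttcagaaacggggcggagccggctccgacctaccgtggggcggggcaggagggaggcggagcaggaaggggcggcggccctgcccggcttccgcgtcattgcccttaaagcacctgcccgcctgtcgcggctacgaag

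The motifs were searched on both strands of all 21238 promoters in the table. In the Zfp36 promoter the capitals are, in order, an ETS match (CCGGAAG, held by 11.6% of promoters), a CArG box (1.53% of promoters) and a STAT match (TTCNNNGAA, 7.69% of promoters). In the Zfp36l1 promoter they are an AP-1 match (TGANTCA, 6.99% of promoters). Among the promoters not printed, Rc3h1 also held an AP-1 match and Zc3h12c a T-box match (TCACACC, 3.68% of promoters). RUNX (TGTGGT, 15.0%), octamer (ATGCAAAT, 1.66%) and NF-kB (4.81%) matches were in none of the 8 windows. No 2 of these matches overlapped, and a match is a stretch of letters and not evidence of binding. Base composition ranged from 52.0% G and C in Zfp36l1 to 77.7% in Zc3h12c, against a median of 56.3% over all promoters.

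The deposited lists held 35110 to 63128 distinct intervals, so each library was reduced to its 35110 strongest by deposited -log10 q, and a region counted as called wherever that reduced list touched it. A weaker peak of the full list may still lie there. The shortest list was that of KO stimulated replicate 1, which was used whole, down to a -log10 q of 1.31. In WT stimulated replicate 3 the list was cut at 27.05. Read depth is unknown, because the lists carry no read totals. All 8 NK marker genes had a called peak within 1 kb of a gene end in all 12 libraries. Of 7 T-cell markers 2 did so and 3 had none in any library, of 5 B-cell and 5 myeloid markers 1 each did so and 4 each had none, and of 4 erythroid markers 1 did so and 2 had none. The part of such cells in the results below was not tested.

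Of the 71 regions, 36 were called in all 12 libraries, or 50.7%, against 46.74% of all regions. Of the 71, 12 overlapped the body of 1 of the 9 genes and 31 were nearer to it than to any other protein-coding gene, with 2 more that touched its body and that of another gene. The others lay in or nearer to neighbours such as Meaf6, Las1l, Rdx, Ppil4, Tab2, Plekhg2, Med29 and Thada. Exons and introns are not given in the annotation used here. A region could be tested for a difference in calls only if its pattern allowed an unadjusted p of 0.05 or less, and 12 of the 71 could for stimulation. Of these 12, 4 became more often called and 4 less often called in stimulated than in control cells, by an exact two-sided permutation test within genotype with Benjamini-Hochberg adjustment over all testable regions. These 8 were 11.3% of the 71 regions, against a background of 11.7% of all regions (6.59% higher and 5.15% lower) and 59.7% of the testable ones, so the 9 loci changed about as often as the genome.

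**Figure D1:**
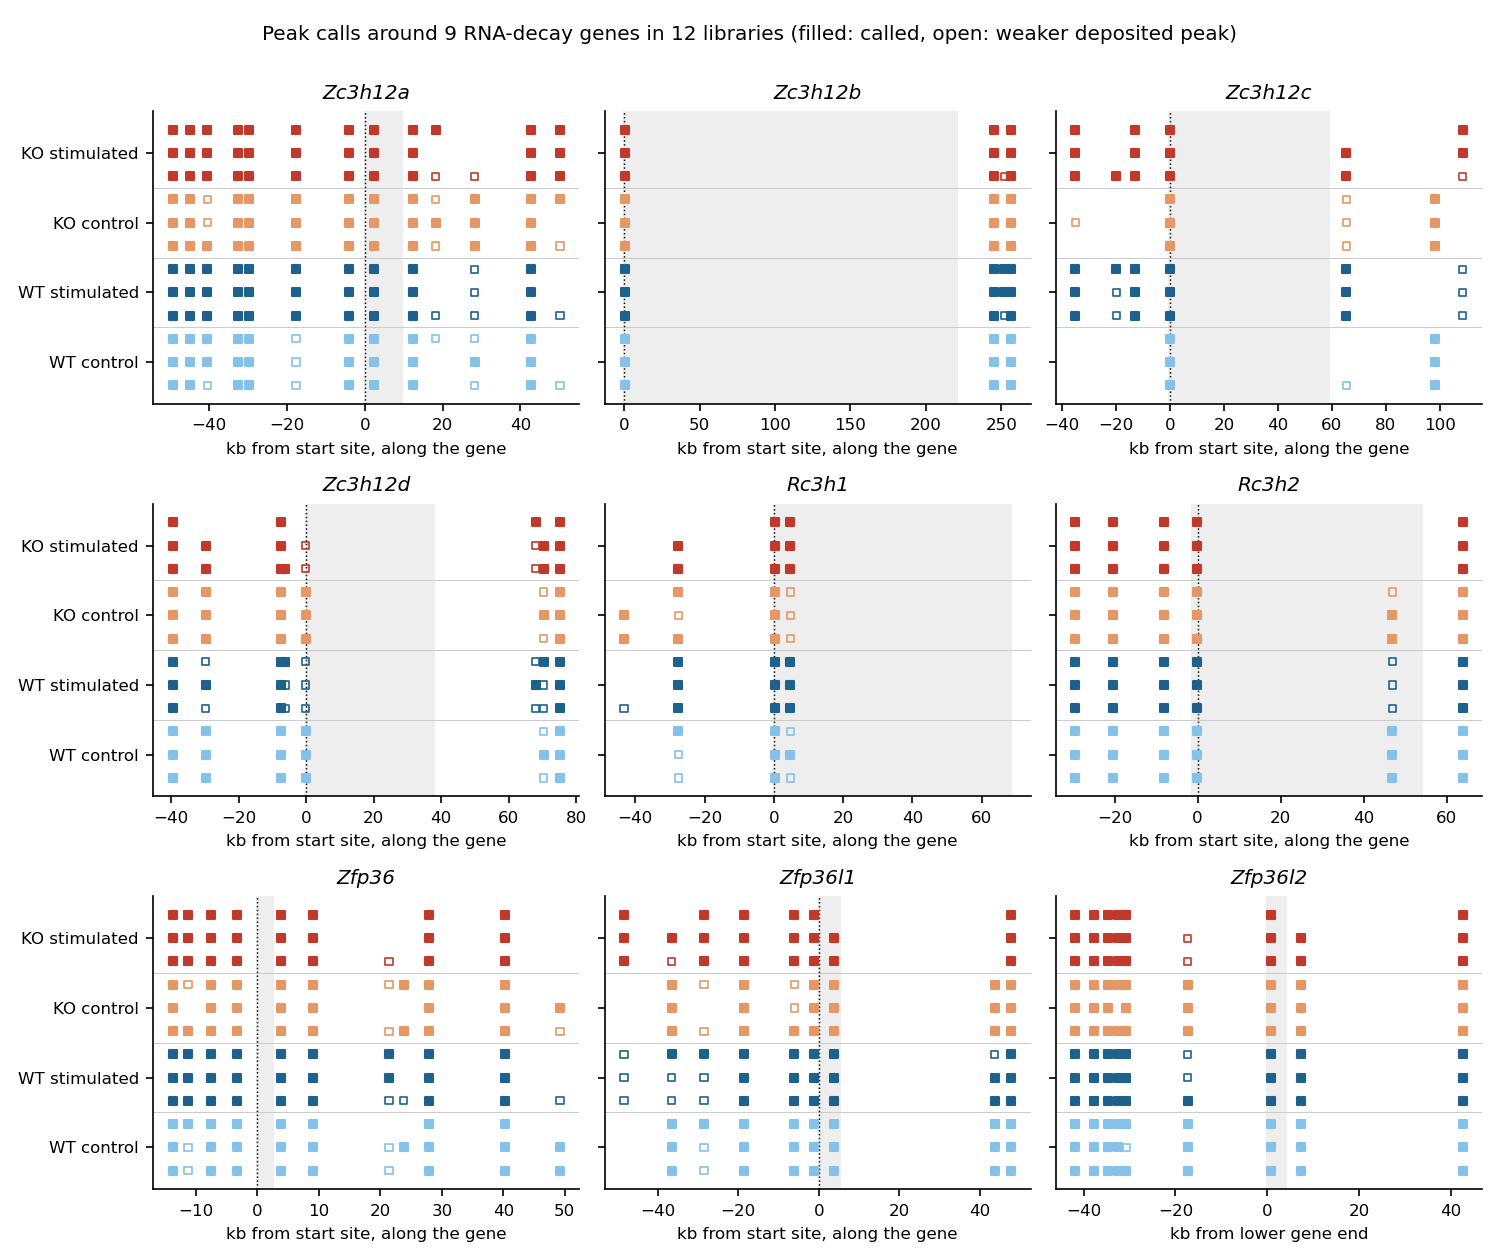
Peak calls around the 9 genes by distance in kb from the start site along the gene (for Zfp36l2, whose start is not in the table used, from the lower gene end in chromosome order). Each row is a library, 3 per group, filled squares are called regions, open squares weaker deposited peaks and grey bands gene bodies. Zc3h12c shows filled squares upstream in the 6 stimulated libraries only, and Zc3h12d a filled square at its start in the 6 control libraries only.

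Zc3h12c, which encodes Regnase-3, held 4 of the 8 changed regions. Its 7 regions include 3 that rose and 1 that fell. Called regions numbered 4, 5 and 5 in KO stimulated, 2, 2 and 2 in KO control, 5, 4 and 4 in WT stimulated and 2, 2 and 2 in WT control libraries. The stimulated and control libraries did not overlap, with a difference of 2.50 regions (exact two-sided permutation test, p = 0.005, the smallest it can give, adjusted p = 0.0361). Of 15568 protein-coding genes tested in this way 13.8% passed, and Zc3h12c was the only one of the 9.

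The first of the regions that rose, chr9:52180881-52181797, lies 12.9 kb upstream of the Zc3h12c start. All 6 stimulated libraries called it and 0 of 6 control libraries did, nor did the full control lists hold a weaker peak there (adjusted p = 0.0169, exact permutation test). Its summits stood at -13.08 to -12.99 kb from the start in all 6 libraries. The deposited fold, the authors' ratio of a peak's pileup over its own library's background, was 13.56, 6.23 and 13.32 in KO stimulated and 15.79, 11.40 and 14.73 in WT stimulated libraries. Such folds describe a peak within its own library, and where they are listed by group below no test between libraries was made. This call held with all deposited intervals, with 50% coverage, with summit windows, with ranking by fold, with a deposited -log10 q of at least 10 and without any 1 library. With the lists cut to 17555 intervals no region was left there to test.

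The second, chr9:52203034-52204045, lies 35.1 kb upstream and was likewise called in all 6 stimulated libraries and in 0 of 6 controls (adjusted p = 0.0169, exact permutation test). A weaker peak with a fold of 3.20 was deposited in KO control replicate 2. With all deposited intervals its adjusted p was 0.0595, and with the lists cut to 17555 intervals it was 0.0578. The third, chr9:52102295-52103871, lies beyond the other side of the gene, 5.7 kb from its lower end. It was called in 5 of 6 stimulated libraries, all but KO stimulated replicate 1, and in 0 of 6 control libraries (adjusted p = 0.0335, exact permutation test). Its strongest summit stood 64.74 to 64.75 kb downstream of the start in the 3 WT stimulated libraries and 65.81 and 65.94 kb downstream in the 2 KO stimulated libraries that called it. The region thus joins neighbouring summits. Weaker peaks were deposited there in 3 of 3 KO control and 1 of 3 WT control libraries. The call was lost with all deposited intervals (difference 0.17 of the libraries), with 50% coverage or summit windows (0.33 each) and with a -log10 q of at least 10 (adjusted p = 0.0776).

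The Zc3h12c region that fell, chr9:52069778-52070728, lies in Rdx, the gene of the membrane-cytoskeleton linker radixin, 38.8 kb from the lower end of Zc3h12c. It was called in 0 of 6 stimulated libraries, whose full lists held no weaker peak there, and in all 6 control libraries (adjusted p = 0.0169, exact permutation test). The control folds were 12.23, 14.51 and 13.48 in KO and 11.64, 19.68 and 22.80 in WT libraries. The call was lost with 50% coverage (difference -0.67 of the libraries, adjusted p = 0.0712, exact permutation test). It was also lost with the lists cut to 17555 intervals (difference -0.50). It held with all deposited intervals, summit windows, ranking by fold, a deposited -log10 q of at least 10, the replicate block and each library left out. The start region of Zc3h12c itself, chr9:52167725-52169164, was called in all 12 libraries. Between its stimulated and control libraries the number of called regions therefore differed through distal regions alone.

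Among the 10650 genes of other loci with at least 5 regions, the 3 whose called-region counts over the 12 libraries ran most like those of Zc3h12c were Itgav, Marchf2 and Card19. Pearson's r was 1.00, 0.986 and 0.982 over libraries that fall into the same 2 clusters, stimulated and control, so r mainly restates that split. Itgav, an integrin alpha subunit, had 5 to 6 called regions in stimulated libraries and 3 in every control library.

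**Figure D2:**
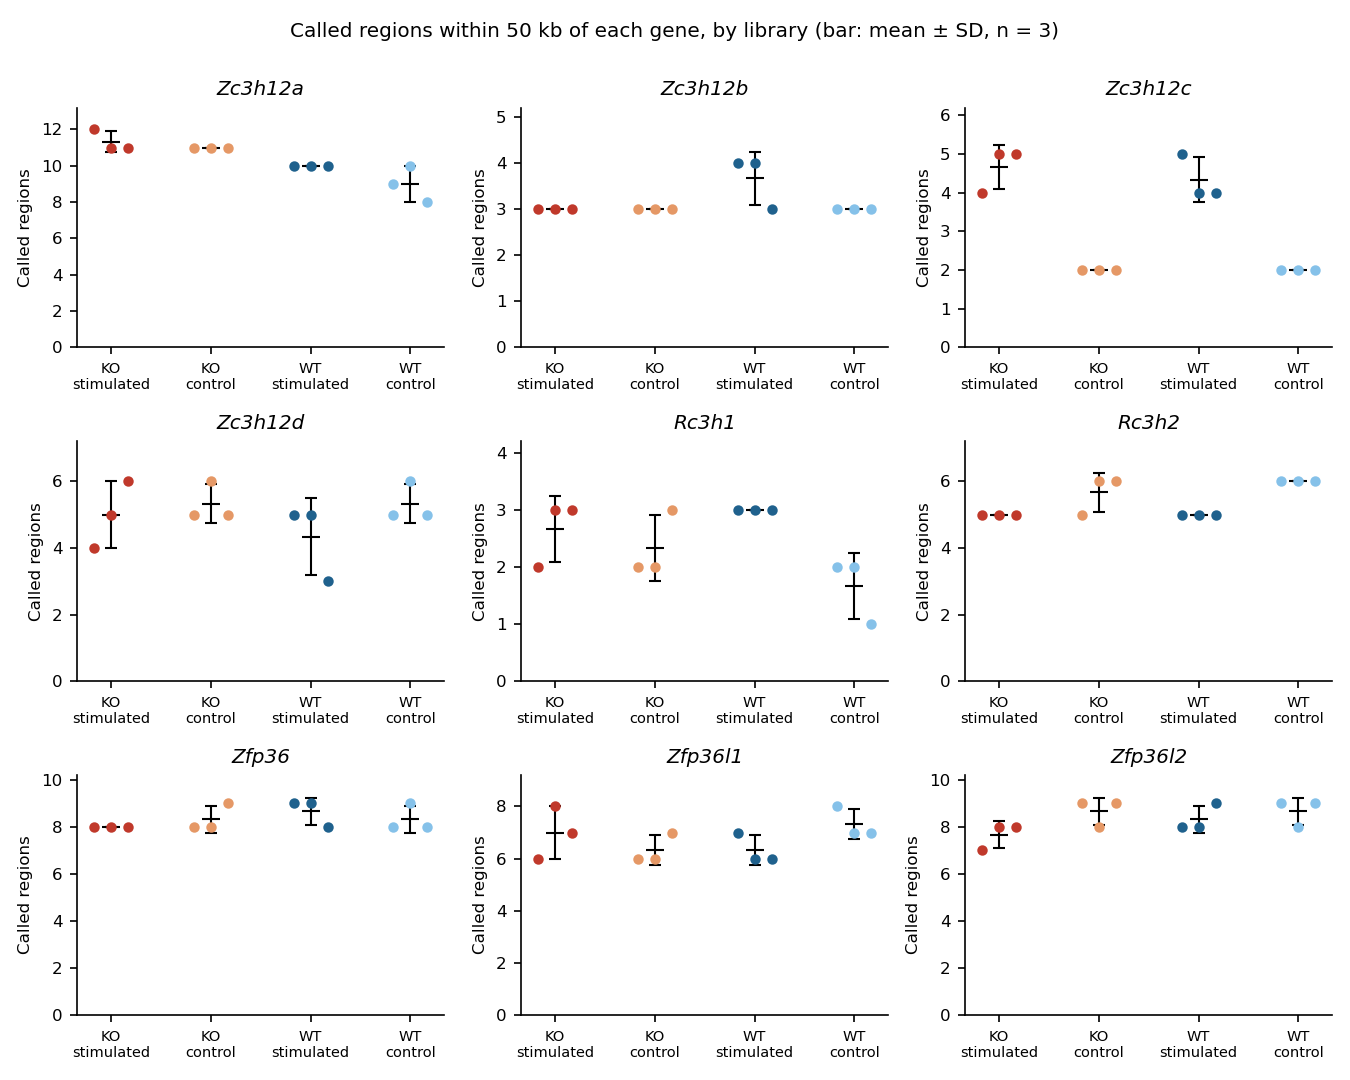
Number of called regions within 50 kb of each gene in each library, with the mean and SD of the 3 libraries of a group. Zc3h12c has 4 or 5 in stimulated and 2 in control libraries, and Zc3h12a has 11 or 12 in KO and 8 to 10 in WT libraries.

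Zc3h12d, which encodes Regnase-4, lost its start-site call under stimulation. The region chr10:7831922-7832679, which contains the promoter printed above, had a call in 0 of 6 stimulated libraries and in all 6 controls (adjusted p = 0.0169, exact permutation test). It was the only one of the 8 known start sites not called in all 12 libraries. Weaker peaks were deposited there in 5 of the 6 stimulated libraries. Their folds were 2.61 and 4.08 in KO stimulated replicates 2 and 3 and 4.31, 3.34 and 4.85 in WT stimulated libraries, and the control folds were 7.29, 7.89 and 9.77 in KO and 5.06, 7.48 and 8.47 in WT libraries. In those 5 libraries the difference is thus one of rank within the list and not of presence, and with all deposited intervals the region differed by 1 library of 6 and could not be tested.

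A second Zc3h12d region moved the other way. For regions called in all 12 libraries, the strength of the strongest interval was expressed as a rank percentile within its library, with 100 the strongest, and compared with limma and Benjamini-Hochberg adjustment over all 21076 such regions. At chr10:7824465-7825505, 7.5 kb upstream of the start, the percentile was 27.5, 13.8 and 38.5 in KO stimulated and 5.0, 2.0 and 2.1 in KO control libraries. It was 33.7, 42.5 and 38.7 in WT stimulated and 3.7, 1.9 and 2.0 in WT control libraries. All stimulated libraries lay above all control libraries, by 23.58 ± 5.04 points in KO (SE, adjusted p = 0.00574) and 35.80 ± 5.04 points in WT (adjusted p = 3.47e-04). The called interval was also wider, by 0.45 on the log2 scale relative to the library median (SE 0.12, adjusted p = 0.0237 by limma). That width call was lost without WT stimulated replicate 2, WT control replicate 1 or WT control replicate 2 (highest adjusted p = 0.0543) and without centring on the library median (adjusted p = 0.0905). This region is nearer to Ppil4, a peptidyl-prolyl isomerase gene, than to Zc3h12d.

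Across the 36 member regions called in all 12 libraries, stimulation raised the percentile of 2 and lowered that of 6 in KO cells, and raised 2 and lowered 10 in WT cells. The background was 27.4% of all such regions in KO (14.4% higher, 13.0% lower) and 31.7% in WT (15.8% higher, 15.9% lower). The median difference over the 36 was -1.60 points in KO and -1.84 points in WT, against -1.22 and -1.26 points over all regions. For width, 2 were wider and 1 narrower with stimulation, against a background of 16.3%. The differences in KO and in WT share no library. Their spread comes from 1 fit over all 12 libraries, so the 2 tests are not independent.

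Zc3h12a, the gene deleted in KO cells, had 13 regions, 8 of them called in all 12 libraries. The deleted exons are not given, so whether the deletion leaves a trace in the peak lists was not tested. No call at the Zc3h12a start distinguished the genotypes. Its start region, chr4:125121945-125128930, is 6986 bp wide and covers most of the gene, which spans chr4:125118414-125127881. Its percentile lay between 97.2 and 99.2 in KO stimulated, 96.3 and 96.7 in KO control, 97.3 and 97.9 in WT stimulated and 95.9 and 97.7 in WT control libraries, with no call in any contrast. A weak region over the lower gene end, chr4:125117670-125118634, was deposited in 0 of 6 KO and 6 of 6 WT libraries but reached the equal lists in none (exact permutation test, p = 0.005, adjusted p = 0.329).

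The largest shift of rank among the 36 regions was at chr4:125156543-125158772, 29.8 kb upstream of the Zc3h12a start. The percentile was 92.5, 56.7 and 69.0 in KO stimulated and 19.2, 14.4 and 23.8 in KO control libraries, and 72.4, 73.7 and 68.4 in WT stimulated and 20.3, 20.1 and 23.8 in WT control libraries. No stimulated library overlapped the control range. The difference was 53.58 ± 7.05 points in KO (SE, adjusted p = 2.97e-04, limma) and 50.05 ± 7.05 points in WT (adjusted p = 3.49e-04), and the interaction was 3.53 ± 9.97 points (adjusted p = 0.903). The called interval widened too, to 1856, 1865 and 2230 bp in KO stimulated against 1299, 1269 and 1342 bp in KO control libraries, and to 2039, 2176 and 2085 bp in WT stimulated against 1440, 1371 and 1481 bp in WT control libraries. Relative to the library median this was 0.62 ± 0.06 on the log2 scale (SE, adjusted p = 9.94e-05, limma). Leaving out any 1 library kept the rank difference between 43.65 and 61.07 points in KO and between 48.80 and 51.45 points in WT.

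The other regions of the locus that passed by rank moved less, and downward. At chr4:125175810-125178760, 49.4 kb upstream, the percentile differed by -7.62 ± 2.46 points in KO (adjusted p = 0.0419) and by -9.35 ± 2.46 points in WT (adjusted p = 0.0144, limma). The KO call was lost in 10 of the 12 fits that leave out 1 library and with the replicate number as a block (adjusted p = 0.0620), and the WT call in 1 of the 12 fits. At chr4:125159926-125161221, 32.7 kb upstream and next to the region that rose, it fell by 12.60 ± 3.79 points in WT (adjusted p = 0.0274, lost in 4 of the 12 fits, with a highest adjusted p of 0.105). In KO the difference there was -6.61 ± 3.79 points (adjusted p = 0.228, limma). At chr4:125084140-125085923, at the start of Meaf6, the percentile fell by 17.52 ± 5.58 points in KO (adjusted p = 0.0400, lost in 7 of the 12 fits and, at 0.0531, with the replicate block). In WT the difference there was -13.75 ± 5.58 points (adjusted p = 0.0894, limma).

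Inside the Zc3h12a start region a second summit stood 3.0 to 3.1 kb downstream of the start in all 12 libraries. Set against the start-site summit of the same library, its deposited fold was 66.8%, 71.7% and 89.5% in KO stimulated and 49.5%, 51.0% and 52.7% in KO control libraries. It was 80.3%, 74.1% and 77.7% in WT stimulated and 48.1%, 46.1% and 49.9% in WT control libraries. The stimulated libraries, with a median of 75.9%, did not overlap the control libraries, with a median of 49.7%. The ratio uses 2 summits of 1 library and so needs no scaling between libraries. It was chosen after its values were seen and is given with no test.

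**Figure D3:**
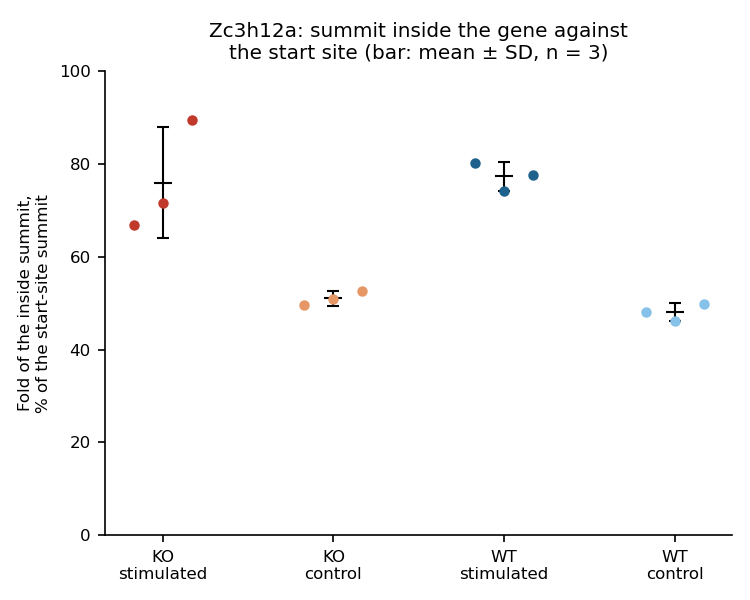
Deposited fold of the summit inside Zc3h12a as a percentage of the fold of the start-site summit in the same library, with the mean and SD of 3 libraries per group. The 6 stimulated libraries lie between 66.8% and 89.5%, above the 6 control libraries between 46.1% and 52.7%.

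Zc3h12b had 4 regions and no call in any contrast. Its start, on the X chromosome at chrX:95711488-95712427, was weak: among 7876 start sites with a summit in all 12 libraries its percentile was 6.3 to 17.9 in KO stimulated, 6.6 to 9.2 in KO control, 3.9 to 6.1 in WT stimulated and 3.8 to 5.6 in WT control libraries. The other 3 regions lay beyond its far end at or near Las1l, and none was found in its body away from the start.

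Among the Roquin genes, each had 1 changed region inside its body and an unchanged start. At Rc3h1 the region chr1:160910602-160911648, 4.7 kb downstream of the start, had a call in 6 of 6 stimulated libraries and in 1 of 6 controls (adjusted p = 0.0335, exact permutation test). Peaks were deposited there in all 12 libraries. Their folds were 3.57, 7.23 and 8.81 in KO stimulated, 2.86, 2.56 and 4.104 in KO control, 10.77, 14.16 and 11.75 in WT stimulated and 4.05, 5.90 and 5.25 in WT control libraries. At Rc3h2 the region chr2:37375606-37376511, 46.8 kb downstream of the start, had a call in 0 of 6 stimulated libraries and in 5 of 6 controls (adjusted p = 0.0335, exact permutation test). Weaker peaks were deposited in all 3 WT stimulated libraries and in no KO stimulated library. Neither difference could be tested with all deposited intervals, where the Rc3h1 region was present in every library.

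The number of called regions near Rc3h2 was 5 in every stimulated library, 5, 6 and 6 in KO control and 6 in every WT control library (difference -0.83, exact permutation p = 0.02, adjusted p = 0.0709). Without KO control replicate 1 the adjusted p was 0.0394. The Rc3h2 region that fell in rank with stimulation in KO was chr2:37451641-37453048, at the start of Rabgap1 (-14.93 ± 3.97 points, adjusted p = 0.0178, limma). That call was lost without KO control replicate 2 (adjusted p = 0.0599), and the WT difference there was -2.50 ± 3.97 points (adjusted p = 0.710). In WT the region that fell was chr2:37358324-37359854, at the start of Pdcl (-9.004 ± 3.02 points, adjusted p = 0.0436), a call lost in 9 of the 12 fits that leave out 1 library. Its KO difference was -0.46 ± 3.02 points (adjusted p = 0.931). Both regions lie at the starts of neighbouring genes.

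In the TTP family every change with stimulation that passed in the equal lists was downward. Because the start of Zfp36 lies in an 8989-bp region, chr7:28370972-28379960, that also holds the start of Plekhg2, the family was first compared by start site. For each gene in the promoter table the strongest summit within 500 bp of the start was ranked among the 7876 start sites with a summit in all 12 libraries, and 7 of the 9 genes were among them. This comparison was added after the data had been seen.

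At the Zfp36 start the percentile was 59.0, 64.2 and 55.5 in KO stimulated and 73.4, 64.3 and 72.1 in KO control libraries, and 58.9, 53.7 and 53.7 in WT stimulated and 80.7, 77.4 and 69.7 in WT control libraries. The groups did not overlap within either genotype, although KO stimulated replicate 2 and KO control replicate 2 differed by less than 1 point. The difference was -10.35 ± 3.60 points in KO (SE, adjusted p = 0.160, limma) and -20.53 ± 3.60 points in WT (adjusted p = 0.0100). At the Zfp36l1 start the percentile was 81.7, 69.8 and 77.3 in KO stimulated and 72.9, 84.2 and 83.8 in KO control libraries, which overlapped. It was 70.5, 66.4 and 63.9 in WT stimulated and 85.4, 86.0 and 86.9 in WT control libraries, which did not. The difference was -3.98 ± 3.69 points in KO (adjusted p = 0.560) and -19.17 ± 3.69 points in WT (adjusted p = 0.0168, limma).

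Stimulation thus lowered 2 of 7 member start sites in WT, where the background was 4.56% of start sites (2.16% lower), and 0 of 7 in KO, where it was 2.63% (1.02% lower) and 1 of the 7 had an unadjusted p under 0.05. The genotypes are not shown to differ in this: the interaction was 10.18 ± 5.09 points at Zfp36 and 15.19 ± 5.22 points at Zfp36l1 (adjusted p = 0.762 for each, limma), and 0 of 7876 start sites passed it, with 1 of the 7 at an unadjusted p under 0.05. By genotype 0 of 7 passed in control cells (background 0.0254%, 0 of 7 at an unadjusted p under 0.05) and 0 of 7 in stimulated cells (background 0.0508%, 1 of 7). The other 5 start sites passed in no contrast. Their order was the same in all 4 groups by mean percentile, with Zc3h12a highest, then Rc3h1, Rc3h2, Zc3h12c and Zc3h12b. The last 2 overlapped in KO stimulated libraries, at 9.4 to 15.0 and 6.3 to 17.9, and also in both control groups, and were apart in WT stimulated libraries, at 12.7 to 14.3 and 3.9 to 6.1.

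**Figure D4:**
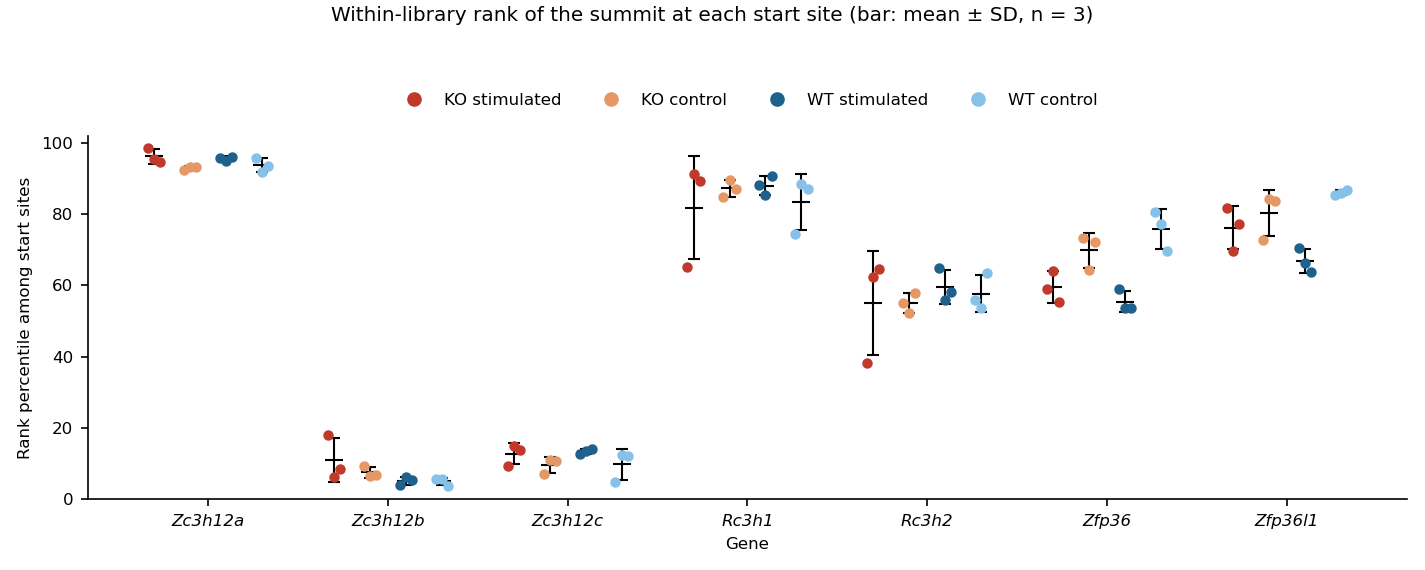
Rank percentile of the start-site summit of 7 genes among 7876 start sites, by library and group, with the mean and SD of 3 libraries. Zfp36 and Zfp36l1 stand lower in WT stimulated than in WT control libraries, while Zc3h12a stays above 91 in all 12.

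The regions called in all 12 libraries gave a like picture at the start region of Zfp36l1, which also overlaps the promoter and body of Gm52006. At the start region of Zfp36l1, chr12:80111162-80117416, the percentile was 89.1, 84.2 and 88.1 in KO stimulated and 86.5, 92.6 and 92.5 in KO control libraries, and 82.8, 80.7 and 79.1 in WT stimulated and 92.6, 93.2 and 93.7 in WT control libraries. The difference was -3.36 ± 2.34 points in KO (adjusted p = 0.318, limma) and -12.29 ± 2.34 points in WT (adjusted p = 0.00236). Farther upstream, 18.5 kb from the start, chr12:80129652-80133421 overlaps the promoter of 2310015A10Rik and is nearest to Gm52006 among protein-coding genes. Its percentile differed by -7.94 ± 2.42 points in KO (adjusted p = 0.0329, limma) and by -8.36 ± 2.42 points in WT (adjusted p = 0.0228). Leaving out 1 library ended the KO call in 5 of 12 fits and the WT call in 4.

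Near Zfp36 the region chr7:28386085-28387538, 7.6 kb upstream and inside Med29, a Mediator subunit gene, had percentiles of 8.2, 28.2 and 26.4 in KO stimulated and 49.5, 52.7 and 45.0 in KO control libraries. They were 22.9, 29.2 and 18.6 in WT stimulated and 44.2, 45.2 and 43.6 in WT control libraries. Every stimulated library lay below every control library, by -28.11 ± 4.90 points in KO (adjusted p = 0.00178, limma) and -20.80 ± 4.90 points in WT (adjusted p = 0.00811). The other 10 regions near Zfp36 passed no test. They include the 8989-bp region that holds its start, whose strongest interval gave an adjusted p of 0.902 in WT and 0.848 in KO (limma), unlike the start-site summit in WT. The start regions of Supt5, Rps16, Paf1 and Plekhg2 were called in all 12 libraries.

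Zfp36l2, which encodes a TTP relative, had 9 regions, and a string of 6 lay 16.8 to 40.2 kb below its lower end, each nearer to Zfp36l2 than to any other protein-coding gene. The nearest of these, chr17:84166049-84167079, had a call in 1 of 6 stimulated libraries and in 6 of 6 controls (adjusted p = 0.0335, exact permutation test). Its folds were 3.42 and 5.16 in KO stimulated replicates 2 and 3, 11.71, 10.24 and 12.31 in KO control, 5.74, 6.49 and 9.14 in WT stimulated and 12.15, 18.50 and 23.40 in WT control libraries. A weaker region beside it, chr17:84161180-84161782, was deposited in 0 of 6 stimulated and 6 of 6 control libraries and passed when all deposited intervals were used (adjusted p = 0.0404, exact permutation test). Under that setting the first region lost its call (difference -0.17 of the libraries), as it did with a -log10 q of at least 10 (-0.50) and with lists of 17555 intervals (-0.33). The same setting gave an upward call in the TTP family, at chr12:80161011-80161724, 48.4 kb upstream of Zfp36l1, which was deposited in 6 of 6 stimulated and 0 of 6 control libraries (adjusted p = 0.0404, exact permutation test).

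At chr17:84145093-84147062, 36.9 kb below the lower end, the percentile was 18.0, 5.3 and 8.6 in KO stimulated and 28.2, 19.7 and 23.8 in KO control libraries, and 10.2, 7.4 and 7.3 in WT stimulated and 33.4, 34.6 and 29.1 in WT control libraries. The difference was -13.26 ± 3.46 points in KO (adjusted p = 0.0161, limma) and -24.05 ± 3.46 points in WT (adjusted p = 3.98e-04). This was the member region that narrowed, by -0.62 ± 0.10 on the log2 scale (adjusted p = 0.00172). The KO rank call was lost without KO stimulated replicate 2 or KO control replicate 1 (highest adjusted p = 0.0605).

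The region over the Zfp36l2 body, chr17:84179592-84189775, is 10184 bp wide. Its percentile was 96.3, 85.5 and 83.5 in KO stimulated and 92.4, 92.1 and 91.6 in KO control libraries, and 75.9, 83.2 and 82.7 in WT stimulated and 95.7, 93.8 and 92.9 in WT control libraries. KO stimulated replicate 1 was the highest and its 2 partners the lowest of the KO libraries. The difference was -3.61 ± 3.32 points in KO (adjusted p = 0.455, limma) and -13.56 ± 3.32 points in WT (adjusted p = 0.00995), with an interaction of 9.96 ± 4.70 points (adjusted p = 0.552). A region inside Thada, chr17:84225980-84227061, fell by 26.65 ± 8.23 points in WT (adjusted p = 0.0309) and differed by 0.09 ± 8.23 points in KO (adjusted p = 0.997, limma).

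**Figure D5:**
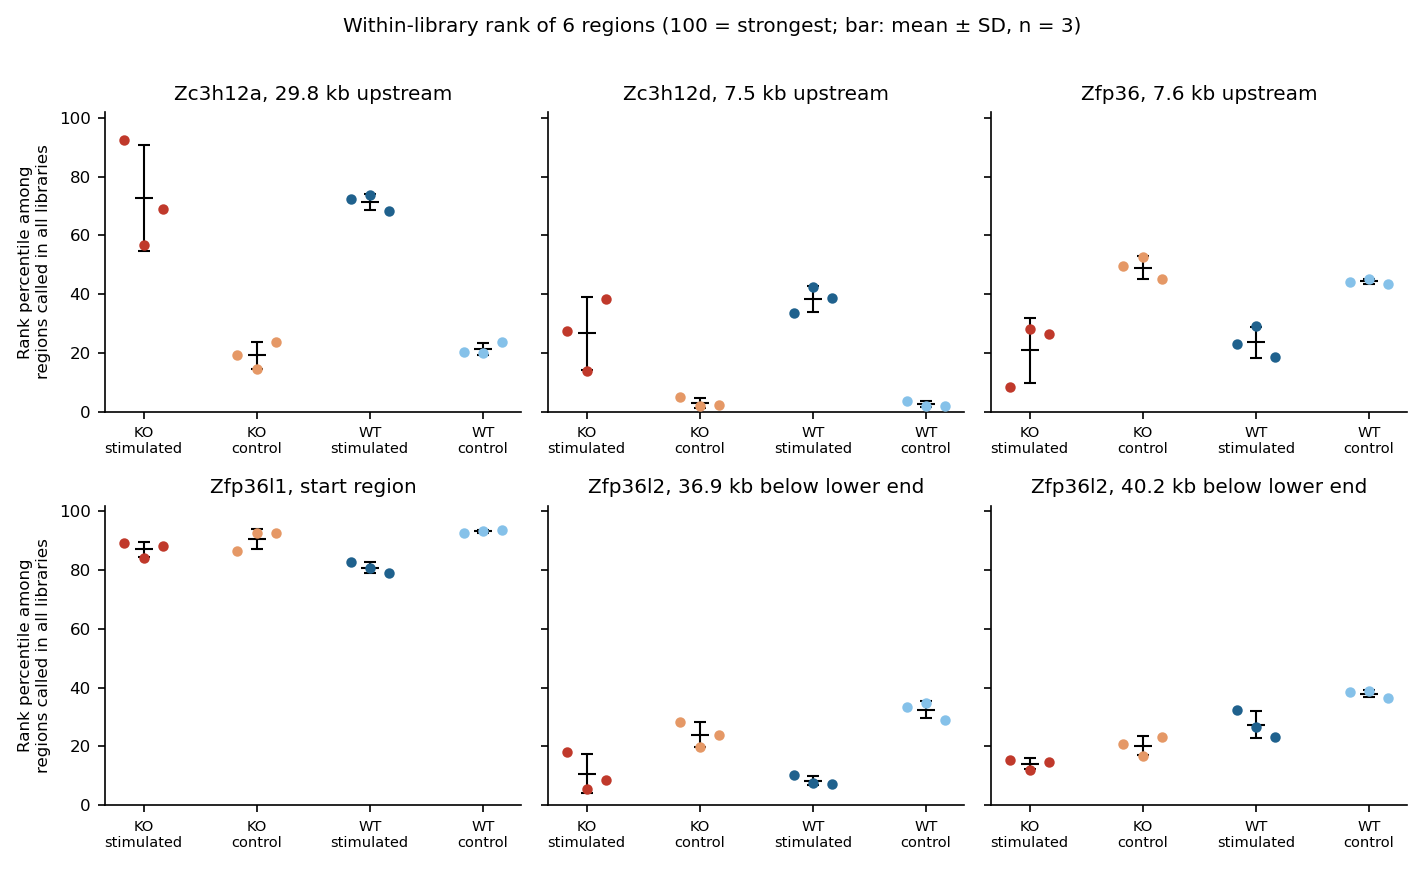
Rank percentile of 6 regions called in all 12 libraries, by library and group, with the mean and SD of 3 libraries. The Zc3h12a and Zc3h12d regions stand higher in stimulated than in control libraries, the Zfp36, Zfp36l1 and nearer Zfp36l2 regions lower in WT stimulated than in WT control libraries, and the farther Zfp36l2 region lower in KO than in WT libraries.

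Between genotypes, no member region differed in calls: 0 of 3 testable regions passed and 1 had an unadjusted p of 0.05, by the exact permutation test. Over the genome 0 of 1835 testable regions passed and 465 had an unadjusted p of 0.05 or less, so the background was 0.0%. By rank with limma, 1 of 36 regions was lower in KO than in WT controls and 1 of 36 was lower in KO than in WT stimulated cells, against backgrounds of 1.34% (0.716% lower) and 3.19% (1.98% lower) of all regions. Both calls are of the same region, chr17:84140499-84143691, 40.2 kb below the lower end of Zfp36l2. Its percentile was 15.5, 11.9 and 14.7 in KO stimulated and 32.2, 26.6 and 23.3 in WT stimulated libraries, and 20.8, 16.8 and 23.2 in KO control and 38.5, 38.8 and 36.6 in WT control libraries. KO lay below WT in both treatments, by -13.34 ± 2.68 points in stimulated cells (adjusted p = 0.0275) and -17.73 ± 2.68 points in control cells (adjusted p = 0.0153). Leaving out 1 library ended the call in 3 of 12 fits for stimulated and 4 of 12 for control cells. The region was also lower in WT stimulated than in WT control libraries (adjusted p = 0.0115, limma).

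Near Zc3h12a the count of called regions was 12, 11 and 11 in KO stimulated and 10, 10 and 10 in WT stimulated libraries, and 11, 11 and 11 in KO control and 9, 10 and 8 in WT control libraries. The difference was 1.67 regions, with no overlap between KO and WT (exact permutation test, p = 0.005, adjusted p = 0.646). Of the 9 genes this was the 1 with an unadjusted p under 0.05, and 0 of 15568 genes passed after adjustment. With all deposited intervals the difference was -0.33, and with the lists cut to 17555 intervals, intervals covering 50% of the region or a deposited -log10 q of at least 10 it was -0.17.

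The regions behind that count were weak. At chr4:125145210-125145951, 17.7 kb upstream of the Zc3h12a start, calls were 3 of 3 in KO stimulated, KO control and WT stimulated and 0 of 3 in WT control libraries, a pattern between KO and WT controls that 1.14% of all regions showed. Peaks were deposited there in all 12 libraries, with folds of 7.03, 6.83 and 6.84 in KO control and 3.29, 4.53 and 4.04 in WT control libraries. At chr4:125077257-125078089, 40.3 kb beyond the lower end, calls were 3 of 3 in KO stimulated and 0 of 3 in WT stimulated libraries, as for 1.00% of all regions, and the same held at chr12:80161011-80161724, upstream of Zfp36l1, where weaker peaks were deposited in 3 of 3 WT stimulated libraries. With 3 libraries against 3 the exact test cannot go below p = 0.1, so these patterns carry no call.

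No member region showed an interaction of genotype and stimulation in rank (0 of 36 by limma, 3 of 36 at an unadjusted p under 0.05, background 0.0237%), and no member width differed between genotypes (0 of 36, 5 of 36 at an unadjusted p under 0.05, background 0.503%).

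Beside the 9 genes, 40 genes of the same decay pathways held 288 regions, of which 12 were more often and 13 less often called after stimulation and 0 differed by genotype. That is 8.68% of the 288, against 11.7% of all regions. By the number of called regions 4 of the 40 genes passed for stimulation, against 13.8% of all genes tested. Regions that rose alone were found at 6 of the 40 genes, regions that fell alone at 10, both at 4 and no such region at 20. For the 9 genes these numbers were 1, 3, 1 and 4. Genes with overlapping windows, such as Khnyn and Nynrin, each count a region they share, and the share of all genes in each class was not counted. Among 81 regions of 13 deadenylation genes 3 rose and 3 fell, or 7.41% in all. Among 49 regions of 9 decapping and 5′ decay genes it was also 3 and 3 (12.2%). The 34 regions of 5 other AU-rich element binders gave 3 and 2 (14.7%). For 35 regions of 4 helicase and cofactor genes of Regnase and Roquin it was 1 and 1 (5.71%). For 67 regions of 6 regulators of these proteins it was 2 and 2 (5.97%). Beside each of these stands the 11.7% of all regions. Elavl1, which encodes the RNA-stabilising protein HuR, had 9 called regions in every stimulated and 7 in every control library (difference 2.00, adjusted p = 0.0361, exact permutation test).

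Among 22 regions of the 3 NYN-domain relatives of Regnase-1, N4bp1, Khnyn and Nynrin, 0 rose and 2 fell. That is 9.09%, against 11.7% of all regions. N4bp1, an RNase of the same fold, had 6, 6 and 7 called regions in KO stimulated, 9, 8 and 8 in KO control, 6, 7 and 7 in WT stimulated and 8, 8 and 9 in WT control libraries (difference -1.83, adjusted p = 0.0361, exact permutation test). Nynrin had 8, 8 and 5 in KO stimulated, 9, 10 and 11 in KO control, 7, 7 and 6 in WT stimulated and 8, 11 and 11 in WT control libraries (difference -3.17, adjusted p = 0.0361). Of 6 regulators of Regnase, Roquin or TTP proteins, Btrc, a subunit of the ubiquitin ligase that marks Regnase-1 for degradation, had fewer called regions with stimulation, at 6, 6 and 4 in KO stimulated, 8, 7 and 8 in KO control, 5, 4 and 5 in WT stimulated and 7, 7 and 8 in WT control libraries (difference -2.50, adjusted p = 0.0361). Malt1, the protease that cleaves Regnase-1 and Roquin-1, had 8 to 11 called regions in KO stimulated, 10 to 11 in KO control, 11 in every WT stimulated and 11 to 12 in WT control libraries (difference -0.83, adjusted p = 0.389).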

How the data were processed

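Open chromatin was profiled by ATAC-seq, in which a transposase cuts open DNA. The authors deposited 1 peak list per library, in mm10 coordinates. The submitters' processing notes name MACS2 2.1.1.20160309, Bowtie2 2.3.4.1, cutadapt 4.1, SAMtools 1.15.1, FastQC 0.11.9 and deepTools 3.4.2, without roles, and nothing used here says whether reads were shifted for the transposase. The deposited fold is a ratio to the library's own background, and the -log10 p and -log10 q that the authors deposited likewise belong to a single peak. They were used only within a library.

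Summits of 1 interval were collapsed to the strongest. Equal lists of 35110 intervals were merged at 1 bp overlap, and regions with calls in 2 or more libraries were kept. Calls and region counts were compared by an exact permutation test stratified by the other factor (400 rearrangements, smallest p 0.005), and ranks and log2 widths by limma 3.58.1 in R 4.3.3, both with Benjamini-Hochberg adjustment over all features at 0.05. Python 3.11.15, NumPy 2.4.6 and pandas 2.3.3 were used. Scripts were tested on simulated data. Regions given in full were those at gene starts, those past the presence test and up to 3 per gene and contrast past the rank or width test. The genes, the lists of related and marker genes and the motifs were chosen with earlier results of these data known. Gene positions are those of GRCm38.p6. In rank, each of the 3 same-numbered pairs of KO stimulated and KO control libraries deviated together (r of 0.115 to 0.157, each of the 6 libraries best with its own number), a pairing taken from the data and not from the labels, so values with the replicate block, fitted over all 12 libraries, stand beside the KO rank results they change. Alternatives were other list lengths, overlaps, rankings, flanks, a replicate block and leaving out each library.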

Additional observations from a re-analysis of the deposited data

Results flagged for a closer look

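Below the equal lists, outside the main measurement, 4 weak regions were deposited in 3 of 3 libraries of a stimulated or KO group and in 0 of 3 of the matching control or WT group. How often regions of the full lists show such a pattern over the genome was not counted, so no background stands beside this number. These were chr9:52093186-52093521 beyond Zc3h12c, chr10:7829149-7829484 upstream of Zc3h12d and chr12:80146547-80146940 upstream of Zfp36l1, each in 3 of 3 WT stimulated and 0 of 3 WT control libraries, and chr12:80070729-80071186 beyond Zfp36l1, in 3 of 3 KO control and 0 of 3 WT control libraries. None of them can pass an exact test at 3 libraries against 3, and list length differed between these libraries, whose part was not tested. In the other direction this pattern was found at chr4:125117670-125118634 and chr17:84161180-84161782, given above. It was also found at chr17:84177328-84178104 near Zfp36l2, in 0 of 3 KO stimulated and 3 of 3 KO control libraries. Among the regions just named, chr12:80070729-80071186 was likewise in 0 of 3 KO stimulated and 3 of 3 KO control libraries. The region chr10:7829149-7829484 was in 0 of 3 KO stimulated and 3 of 3 WT stimulated libraries.

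At the region over the Zfp36l2 body, chr17:84179592-84189775, every KO stimulated library ranked above every WT stimulated library, while every KO control library ranked below every WT control library. Both gaps were narrow, at 83.5 against 83.2 between the nearest stimulated libraries and 92.4 against 92.9 between the nearest control libraries, KO first. The share of all regions with such a pattern was not counted. The interaction was 9.96 points by limma, and its adjusted p was 0.552.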

How the results depend on the processing

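Read depth is unknown, and the shortest list sets the length of all. Of 8 member regions changed by stimulation in calls, none was called with lists of 17555 intervals, which held 3 of the 8 and called 2 other regions. There were 3 with a deposited -log10 q of at least 10, and leaving out 1 library gave 8 to 10. The replicate block gave 4, and the other 4 could not be tested under it. With all deposited intervals 6 regions were called, 2 of them among the 8, and with 50% coverage 6, 4 of them among the 8. The Zc3h12c region count, the 1 gene called, gave 0 genes with all deposited intervals, lists of 17555 intervals, intervals covering 50% of the region, a -log10 q of at least 10 or the replicate block, and 1 to 2 without 1 library. The Zc3h12a genotype count difference turned to -0.33 with all deposited intervals and to -0.17 with lists of 17555 intervals, 50% coverage or a -log10 q of at least 10.

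Stimulation rank calls in WT, 12 regions, came to 5 with lists of 17555 intervals, 6 with a flank of 20 kb, 2 with start sites in place of regions and 6 to 13 without 1 library, with 6 without WT stimulated replicate 3. In KO, 8 regions, they came to 3, 3, 0 and 4 to 9, with 4 without KO control replicate 2. The genotype call in control cells, 1 region, came to 0 under the same 3 settings and 0 to 1 without 1 library. In stimulated cells, 1 region, it came to 0 under those settings and with normal scores, to 2 with the replicate block and to 0 to 4 without 1 library. Both main genotype calls are of the region 40.2 kb below the lower end of Zfp36l2. It lies outside the 20 kb flank and is not a start site, so neither of these settings could test it again. Width calls, 3 regions, came to 1 with a flank of 20 kb and 2 to 4 without 1 library, and genotype width, 0 regions, to 2 without centring and 0 to 1 without 1 library. A narrower flank also removes regions from the set. Of 628 values of single regions and genes, 530 kept their side of the threshold and 93 fell below it.

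In calls, same-numbered libraries of different groups did not deviate together (r of -0.026 to 0.069 over 18 pairs, 0 over 0.1), and the 4 calls ended by the replicate block are those made in 5 against 0 or 6 against 1 libraries. In rank, 10 of 18 pairs were over 0.1 (-0.013 to 0.416). Between stimulated and control libraries, all 6 in KO but 5 of 6 in WT (r of 0.059 to 0.186) were best with their own number. For KO against WT it was 4 of 6 in control (0.056 to 0.245) and 0 of 6 in stimulated libraries. The highest same-numbered r, 0.227 to 0.416, joined KO stimulated with WT control libraries, where 3 of 6 were best with their own number. The block ended 2 of the 8 KO rank calls and no rank call given in full for WT.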
